A study of Mus musculus with 12 samples.

Results

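The set of 4 retrocopies and the 4 genes they were copied from was followed through RNA sequencing of the mouse striatum. The pairs were Gm7292 with Norad, Gm14681 with Npm1, Gm15772 with Rpl26, and Rps3a3 with Rps3a1, which are 8 of the 57132 features in the count table. The features were taken by their symbols. The retrocopies had been selected on the genotype contrast itself, because their counts were lower in libraries labelled TAAR5-KO than in libraries labelled WT, and the parents because their sequence is nearly the same. The difference between the labels is therefore a description for all 8 of them, without a test.

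The libraries came from 6 TAAR5-KO and 6 WT C57Bl/6 mice of 10 months that were littermates. TAAR5 is a trace amine receptor. The striatum was what remained of a coronal slice once the cortex had been taken off. Ribosomal RNA was depleted before directional, single-end sequencing with reads of 100 bases. The methods give both sexes in each genotype, but the labels do not tie a sex or an animal to a count column. The columns are therefore named by their numbers, NK1 to NK6 for TAAR5-KO and NK7 to NK12 for WT. The libraries labelled TAAR5-KO held 13766808 to 34824450 counts, and those labelled WT held 11269915 to 21198210. Between 61.3% and 84.7% of them lay on the ribosomal RNA feature Rn18s-rs5.

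The counts on Taar5, which were few, did not follow the labels. Taar5 had 1 to 6 counts in each library labelled TAAR5-KO and 0 to 2 in each labelled WT, so genotypes are given below as labels. It had 19 counts in all and at most 0.234 CPM in a library, and was too low to be tested. Where in the gene these counts lay was not examined, so they do not decide the genotype. The markers of the striatum (Drd1, Drd2, Ppp1r1b and 6 others) were counted in every library, with a sum of 333 to 431 CPM in the libraries labelled TAAR5-KO and 195 (NK11) to 369 CPM in those labelled WT. CPM is a count divided by the library size in units of 1e6, with library sizes scaled by the trimmed mean of M values (TMM). A count of 3 corresponded to 0.0678 to 0.361 CPM, depending on the library. Libraries NK10, NK11 and NK12 stood apart in the retrocopies, and differences between the labels that rest on them are given also without them where a value could be had.

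A retrocopy arises when a processed transcript is reverse-transcribed and inserted elsewhere in the genome, which leaves a copy without introns and usually without the promoter of its parent. Many such copies are silent, and some are transcribed from sequence near the insertion. Ribosomal protein genes, whose transcripts are short and abundant, are known for their large number of processed pseudogenes. A short read from a parent and a read from its retrocopy can have the same letters, so that a read counter has to decide between them or to discard both.

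All 4 retrocopies were annotated as a single uninterrupted exon on GRCm39, the build of the counts. Gm7292 (ENSMUSG00000104222.2) is a long non-coding RNA gene of 2527 bases on the plus strand of chromosome 6, from 117693303 to 117695829. Its parent Norad (ENSMUSG00000102869.4), a long non-coding RNA known for its part in genome stability, lies on the minus strand of chromosome 2 from 156229980 to 156234921. Norad is itself annotated without introns, so the lack of introns in Gm7292 says nothing of its origin. The alignment of the pair covered 2537 columns with an identity of 99.2%, 9 substitutions and 4 gaps. It reached from base 41 to base 2575 of the Norad transcript, so that Gm7292 holds the 5′ part of it, 51.3% of the transcript. The stretch below has the closest neighbouring substitutions, T1470C and A1481G, in capitals, with positions counted from the 5′ end of the retrocopy and the parent's base first.
Gm7292: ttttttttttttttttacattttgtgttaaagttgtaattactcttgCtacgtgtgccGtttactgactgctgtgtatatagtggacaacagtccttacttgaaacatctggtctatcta
Norad: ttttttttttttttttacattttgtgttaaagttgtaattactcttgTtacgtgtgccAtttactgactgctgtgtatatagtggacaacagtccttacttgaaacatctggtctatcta
The Gm7292 stretch is at chr6:117694725-117694844 on the plus strand and the Norad stretch at chr2:156233331-156233450 on the minus strand.

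Gm14681 (ENSMUSG00000081603.2) is a transcribed processed pseudogene of 411 bases on the minus strand of the X chromosome, from 65822048 to 65822458. Its parent Npm1 (ENSMUSG00000057113.14) encodes nucleophosmin, an abundant nucleolar chaperone of ribosome assembly, and lies on the minus strand of chromosome 11 from 33102287 to 33113206. The pair was 97.4% identical over 420 columns, with the substitutions A177G and A402G and a gap of 9 bases. The aligned part was the 3′ end of the coding region, 25.2% of the Npm1 transcript. The gap lies in a repetitive stretch of aspartate and glutamate codons, where its exact place is ambiguous. It is shown because it is the longest difference within any of the pairs, with the bases that Gm14681 lacks in capitals.
Gm14681: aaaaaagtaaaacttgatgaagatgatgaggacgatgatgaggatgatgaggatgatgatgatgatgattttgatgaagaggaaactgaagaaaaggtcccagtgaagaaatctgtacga
Npm1: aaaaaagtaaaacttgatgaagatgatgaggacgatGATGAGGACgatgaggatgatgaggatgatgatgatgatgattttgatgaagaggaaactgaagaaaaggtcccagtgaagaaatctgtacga
The first is at chrX:65822339-65822458 and the second at chr11:33106739-33109995 with an intron left out, both on the minus strand.

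Gm15772 (ENSMUSG00000062353.7) is a processed pseudogene of 438 bases on the plus strand of chromosome 5, from 3286431 to 3286868. Its parent Rpl26 (ENSMUSG00000060938.15), which encodes a protein of the large ribosomal subunit, lies on the plus strand of chromosome 11 from 68792409 to 68797815. The annotated copy matched the whole coding region of Rpl26 with 2 substitutions, an identity of 99.5%. The likeness ran on past the annotation, over 520 bases of the locus and 88.0% of the Rpl26 transcript. Both substitutions, C177T and T288C, fall in the stretch shown.
Gm15772: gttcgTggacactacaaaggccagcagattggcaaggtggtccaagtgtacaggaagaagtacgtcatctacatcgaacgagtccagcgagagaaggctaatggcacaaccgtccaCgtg
Rpl26: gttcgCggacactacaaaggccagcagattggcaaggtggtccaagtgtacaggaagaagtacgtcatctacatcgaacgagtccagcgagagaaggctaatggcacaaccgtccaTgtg
The 120 bases are at chr5:3286602-3286721 and chr11:68794008-68794127, on the plus strand in both.

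Rps3a3 (ENSMUSG00000059751.8) is a transcribed processed pseudogene of 795 bases on the plus strand of chromosome 13, from 108807137 to 108807931, within an intron-bearing gene on the same strand, Pde4d. Its parent Rps3a1 (ENSMUSG00000028081.7), which encodes a protein of the small ribosomal subunit, lies on the minus strand of chromosome 3 from 86045247 to 86050009. The copy matched the whole coding region of Rps3a1 with 9 substitutions and no gap, an identity of 98.9%. The substitutions were spread along the copy, and T216C and T260C are those in capitals.
Rps3a3: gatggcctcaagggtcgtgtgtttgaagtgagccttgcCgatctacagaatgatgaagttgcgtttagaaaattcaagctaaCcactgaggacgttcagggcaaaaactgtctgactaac
Rps3a1: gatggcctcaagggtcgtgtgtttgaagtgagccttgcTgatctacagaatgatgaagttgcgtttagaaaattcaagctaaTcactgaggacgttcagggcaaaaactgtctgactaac
The stretches are at chr13:108807314-108807433 on the plus strand and chr3:86048603-86048722 on the minus strand.

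The pairs differed in how far a read of 100 bases could tell them apart. Of all windows of that length in the retrocopy, 59.7% of Gm7292, 53.2% of Gm14681, 41.0% of Gm15772 and 18.4% of Rps3a3 occurred letter for letter in the parent's transcript. No window held more than 2 substitutions. A read from most of Rps3a3 thus has at least 1 base that marks it, while a read from most of Gm7292 has none.

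**Figure D1:**
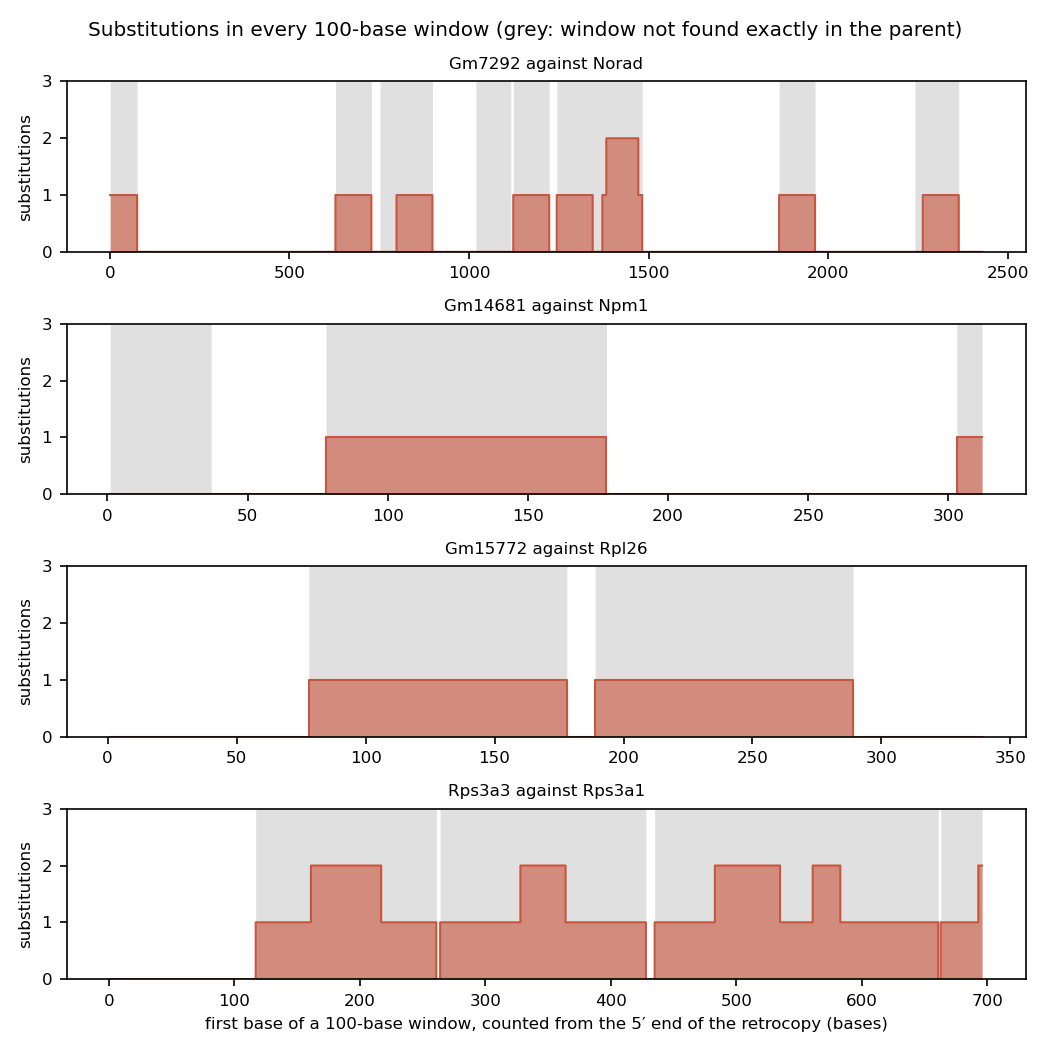
Number of substitutions (vertical axis) in each window of 100 bases along the 4 retrocopies, by the window's first base from the 5′ end (horizontal axis). Grey marks windows that do not occur exactly in the parent's transcript, through a substitution or a gap. White stretches, in which a read cannot be told from the parent, make up 59.7% of the windows of Gm7292 and 18.4% of those of Rps3a3.

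The counts on the retrocopies came almost entirely from 3 libraries, all labelled WT. Of the counts on each retrocopy over the 12 libraries, NK10, NK11 and NK12 held 98.4% for Gm7292, 92.3% for Gm14681, 99.0% for Gm15772 and 95.5% for Rps3a3. The other 9 libraries had at most 6, 8, 1 and 4 counts on them. NK7, NK8 and NK9 carry the same label as NK10 to NK12 and resembled the libraries labelled TAAR5-KO.

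Gm7292 had 70 counts in NK10, 241 in NK11 and 567 in NK12, or 8.43, 11.1 and 12.8 CPM. In the libraries labelled WT it ranged from 0.0720 to 12.8 CPM with a median of 4.27, and in those labelled TAAR5-KO from 0 to 0.156 with a median of 0.0210. The groups overlapped, because NK7, NK8 and NK9 had 1 or 2 counts each. Counts summed over the groups gave a rate 84.6-fold higher in the libraries labelled WT (95% exact interval 44.4 to 186, counting error only). Without NK10, NK11 and NK12, 5 counts in the libraries labelled WT stood against 9 in those labelled TAAR5-KO, a ratio of the rates of 1.06 (0.280 to 3.53).

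Gm14681 had 89, 118 and 225 counts in NK10, NK11 and NK12, or 10.7, 5.45 and 5.08 CPM. Its range was 0.209 to 10.7 CPM (median 2.71) in the libraries labelled WT and 0.0781 to 0.324 CPM (median 0.142) in those labelled TAAR5-KO. It was the retrocopy with the most counts outside the 3 libraries, 36 in all, and was above 0 in every library. The rate over the groups was 19.3-fold higher in the libraries labelled WT (12.4 to 31.9). Without the 3 libraries, 16 counts stood against 20, a ratio of 1.53 (0.742 to 3.11).

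Gm15772 had 69, 102 and 318 counts in NK10, NK11 and NK12, or 8.31, 4.71 and 7.19 CPM. It ranged from 0 to 8.31 CPM (median 2.41) in the libraries labelled WT and from 0 to 0.0619 CPM (median 0.0130) in those labelled TAAR5-KO. No other library had more than 1 count on it. With 3 counts in all libraries labelled TAAR5-KO together, the ratio of the rates was 141 with an interval of 48.0 to 687. It was 1.28 (0.107 to 11.1) without the 3 libraries, from 2 counts against 3.

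Rps3a3 had 21, 104 and 150 counts in NK10, NK11 and NK12, or 2.53, 4.80 and 3.39 CPM. The libraries labelled WT ranged from 0 to 4.80 CPM (median 1.35) and those labelled TAAR5-KO from 0 to 0.126 CPM (median 0.0405). It had the fewest counts of the 4 retrocopies. Its rate was 40.5-fold higher in the libraries labelled WT (18.4 to 111). The ratio without the 3 libraries was 2.23 (0.643 to 8.05), from 7 counts against 6. All 4 intervals without these libraries included 1. They rest on few counts and cover counting error only, so they do not show that the rates were equal.

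The fit over all features gave log2 fold changes, as labelled TAAR5-KO minus labelled WT, of −6.33 (SE 1.08) for Gm7292, −4.28 (SE 0.76) for Gm14681, −6.81 (SE 1.29) for Gm15772 and −4.92 (SE 1.00) for Rps3a3. All 8 members passed the filter of 0.5 CPM in at least 3 libraries, for which CPM was taken on total counts without TMM scaling. Gm7292, Gm15772 and Rps3a3 did so only through NK10, NK11 and NK12. Gm14681 reached the cutoff also in NK7, with 8 counts, which is 0.288 CPM with TMM scaling. By construction, 4 of the 4 retrocopies were called at an adjusted p under 0.1 by edgeR's likelihood ratio test, where 1.65% of all features were (229 of 13902). The quasi-likelihood test of edgeR, which called 0.453% of all features, also called these 4. The contrast had been used to choose them, so nothing is read from these counts. Without NK10, NK11 and NK12 no retrocopy passed the filter.

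**Figure D2:**
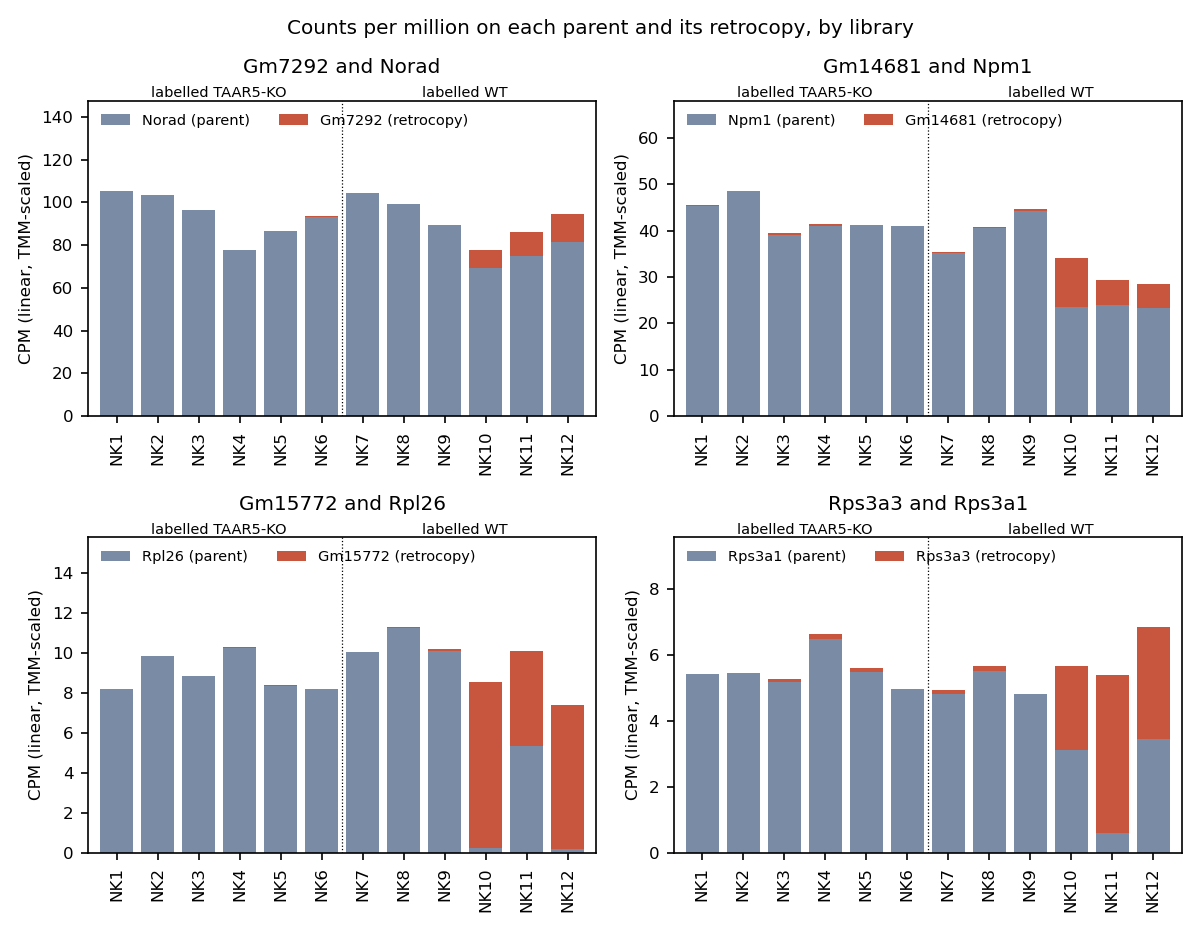
CPM on each parent (blue-grey) and its retrocopy (red), stacked so that the full bar is the pair's sum, for the 12 libraries (horizontal axis), with a linear vertical axis that starts at 0. The red parts are visible in NK10, NK11 and NK12 and are at most 0.328 CPM in the other 9 libraries.

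The parents had lower counts in the same 3 libraries, to a degree that differed among them. Norad, the most abundant of them, ranged from 77.7 to 105 CPM (median 94.9) in the libraries labelled TAAR5-KO and from 69.4 to 104 CPM (median 85.5) in those labelled WT. NK10, NK11 and NK12 were at 69.4, 75.0 and 81.6 CPM. NK10 and NK11 were the lowest of the 12 libraries, while NK12 lay above NK4. The log2 fold change was 0.12 (SE 0.12).

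Npm1 ranged from 39.1 to 48.6 CPM (median 41.1) in the libraries labelled TAAR5-KO and from 23.4 to 44.3 CPM (median 29.6) in those labelled WT. NK10, NK11 and NK12 stood at 23.5, 24.0 and 23.4 CPM, below all others. The next lowest was NK7 with 35.2 CPM. The log2 fold change was 0.43 (SE 0.15).

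Rpl26 was nearly lost from 2 libraries. It had 2 counts in NK10 and 9 in NK12 (0.241 and 0.203 CPM), where 69 and 318 counts lay on Gm15772. NK11 had 116 counts on Rpl26, or 5.35 CPM, and 102 on Gm15772. The other 9 libraries ran from 8.16 to 11.2 CPM on Rpl26. The libraries labelled TAAR5-KO had a mean of 8.93 ± 0.89 CPM (SD, n = 6) and those labelled WT 6.18 ± 5.04 (SD, n = 6), with a log2 fold change of 0.53 (SE 0.58).

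Rps3a1 was lowest in NK11, with 13 counts or 0.600 CPM, where Rps3a3 had 104. In NK10 and NK12 the counts were close to even, with 26 on Rps3a1 and 21 on Rps3a3 in NK10, and 153 and 150 in NK12. The remaining libraries had 4.81 to 6.50 CPM on Rps3a1. The group means were 5.51 ± 0.53 CPM (SD, n = 6) for the label TAAR5-KO and 3.72 ± 1.78 (SD, n = 6) for WT, a log2 fold change of 0.57 (SE 0.29). None of the 4 parents was called, beside 1.65% of all features.

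Per kilobase of merged exons, the parents fell into 2 levels in the libraries labelled TAAR5-KO. Merged exons are longer than the aligned transcript for Rpl26 (1444 against 591 bases) and Npm1 (2665 against 1665), but not for Rps3a1 (977 for both). The levels therefore rest on the length used and do not rank the transcripts. Norad was at 19.0 ± 2.12 CPM per kilobase and Npm1 at 16.0 ± 1.32 (SD, n = 6), with ranges that overlapped. Rpl26 at 6.19 ± 0.62 and Rps3a1 at 5.64 ± 0.54 followed, and overlapped as well. The lowest library for Npm1, at 14.7 CPM per kilobase, was above the highest for Rpl26, at 7.08. The retrocopies were at most at 0.789 CPM per kilobase in these libraries. In the libraries labelled WT the highest values were 26.1 CPM per kilobase for Gm14681 and 19.0 for Gm15772, both in NK10, 6.04 for Rps3a3 in NK11 and 5.07 for Gm7292 in NK12.

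The share of a pair's counts that lay on the retrocopy sets aside library size and scaling. It depends on how much of the parent's transcript was copied, and on how reads that match both are counted. The annotated copies cover 51.3% of Norad, 25.2% of Npm1, 74.1% of Rpl26 and 81.4% of Rps3a1. At the locus the likeness runs on to 88.0% for Rpl26 and 88.4% for Rps3a1, so these percentages are not upper limits of a share. The height of a share is not compared between pairs. The share was below 3% for all 4 pairs in the 9 libraries from NK1 to NK9. For Gm7292 it was 10.8% (95% Wilson interval 8.67 to 13.5) in NK10, 12.9% (11.5 to 14.5) in NK11 and 13.6% (12.6 to 14.6) in NK12, and at most 0.168% elsewhere. These 3 intervals overlapped. For Gm14681 it was 31.3% (26.2 to 37.0) in NK10, above 18.5% (15.7 to 21.7) in NK11 and 17.9% (15.9 to 20.1) in NK12, and at most 0.821% elsewhere.

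The shares of the ribosomal protein pairs differed more among the 3 libraries. Gm15772 took 97.2% (90.3 to 99.2) of the counts in NK10 and 97.2% (94.9 to 98.5) in NK12, but 46.8% (40.3 to 53.4) in NK11. Rps3a3 went the other way, with 88.9% (81.9 to 93.4) in NK11 and 44.7% (31.4 to 58.8) and 49.5% (43.9 to 55.1) in NK10 and NK12. NK11 was thus the lowest of the 3 for Gm15772 and the highest for Rps3a3. The intervals cover counting error only, and reads without molecular identifiers are not independent molecules.

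A share of 0 was found in 11 of the 36 remaining values. It allows a share of up to 0.218% on Gm7292 in NK1, where 0 of 1377 counts lay on it. The smallest pair total, 44 counts on Rps3a3 and Rps3a1 in NK9, allows up to 6.82%. Shares as low as those of Gm7292 in NK1 to NK9 could therefore not be seen in the ribosomal protein pairs at this depth.

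**Figure D3:**
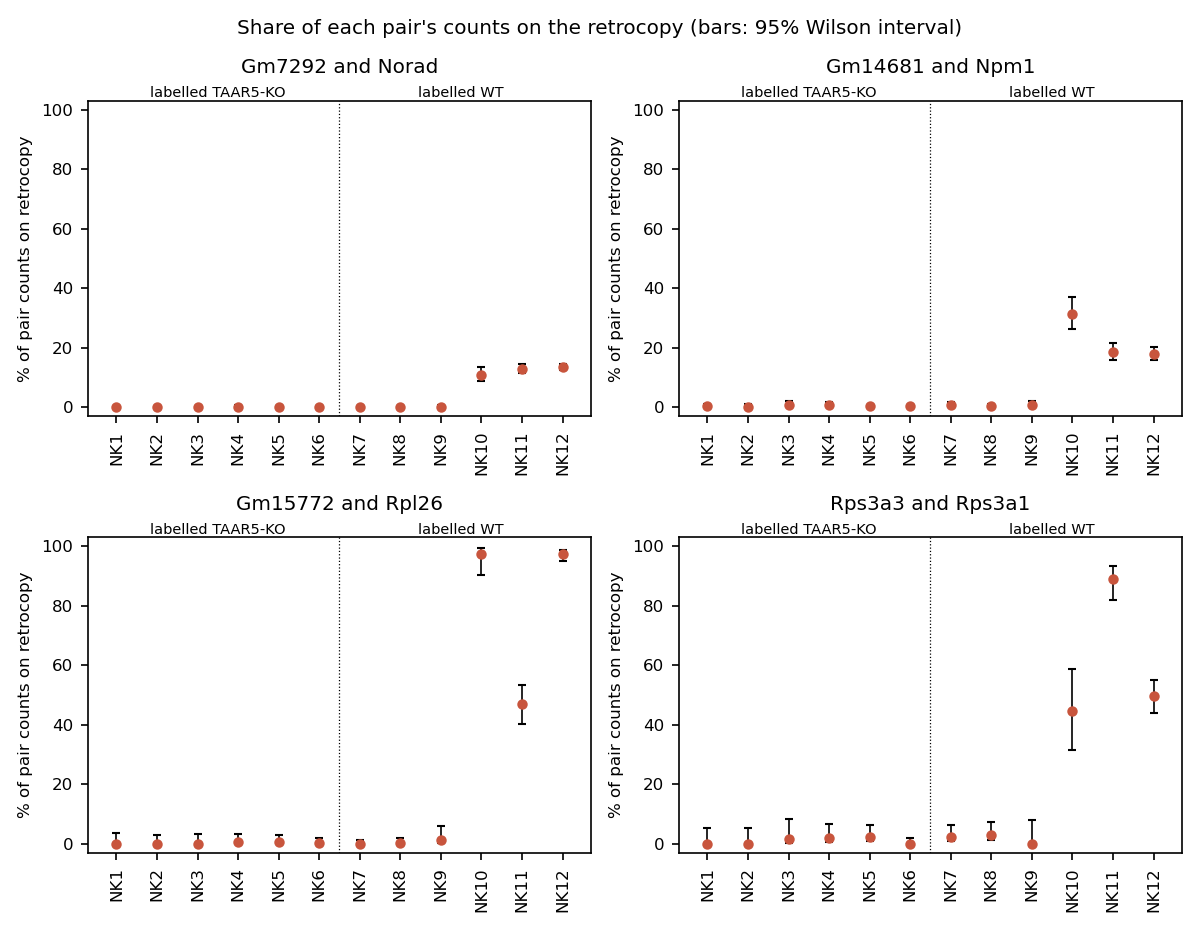
Percentage of each pair's counts that lay on the retrocopy (vertical axis) in the 12 libraries (horizontal axis), with 95% Wilson intervals. All values are below 3% from NK1 to NK9. In NK10, NK11 and NK12 they run from 10.8% for Gm7292 to 97.2% for Gm15772. The copied part of the parent differs between pairs, so heights are not comparable across panels.

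When retrocopy and parent were added, the libraries became more alike. The coefficient of variation over the 12 libraries went from 13.6% for Norad alone to 10.3% for the sum, from 23.8% to 15.8% for Npm1, from 49.4% to 12.5% for Rpl26 and from 33.8% to 11.2% for Rps3a1. Over NK1 to NK9 alone it was 9.23% to 11.5% for the parents and 9.06% to 11.6% for the sums. Rpl26 varied 55.2-fold between the highest and lowest library labelled WT, and its sum with Gm15772 varied 1.53-fold. The sum of Rps3a1 and Rps3a3 was 5.66, 5.40 and 6.85 CPM in NK10, NK11 and NK12, and 4.81 to 6.63 CPM in the others. NK12 had the highest of these sums, and NK10 and NK11 lay among the other libraries.

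The difference between the labels was close to 0 in 3 of the 4 sums. Refitted with the rows of a pair replaced by their sum, the log2 fold change was 0.03 (SE 0.10) for Norad and Gm7292, −0.10 (SE 0.12) for Rpl26 and Gm15772, and −0.03 (SE 0.12) for Rps3a1 and Rps3a3. For Npm1 and Gm14681 it was 0.28 (SE 0.11). That sum was 34.2, 29.4 and 28.5 CPM in NK10, NK11 and NK12, the lowest of the 12 libraries, against 35.5 to 48.6 CPM in the others.

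With NK10, NK11 and NK12 left out, the parents alone had log2 fold changes of −0.06 (SE 0.13) for Norad, 0.10 (SE 0.12) for Npm1, −0.24 (SE 0.12) for Rpl26 and 0.11 (SE 0.14) for Rps3a1. Norad and Rpl26 changed their sign, from 0.12 and 0.53 with all libraries, and Npm1 went from 0.43 to 0.10 and Rps3a1 from 0.57 to 0.11. The sums without these libraries differed from the parents alone by at most 0.015, since few retrocopy counts were left. This alternative was added after the data were seen.

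**Figure D4:**
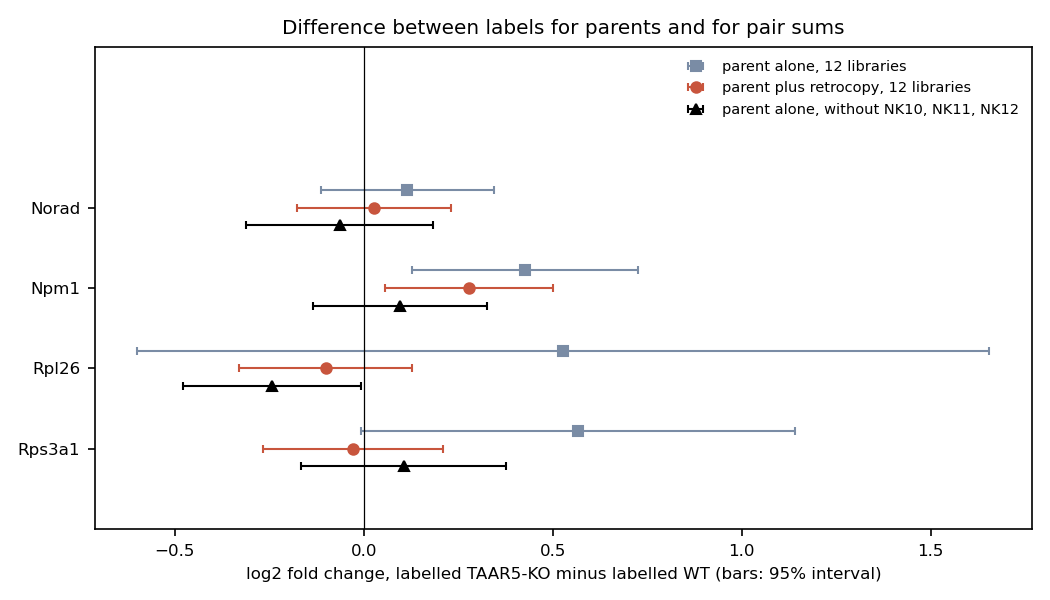
Log2 fold change (horizontal axis, labelled TAAR5-KO minus labelled WT) of the 4 parents alone (squares), of parent plus retrocopy (circles) and of the parents without NK10, NK11 and NK12 (triangles), with 95% intervals as bars. The value for Rpl26 moves from 0.53 to −0.10 when the counts on Gm15772 are added.

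Other copies of the parents were looked for by sequence, as features outside the 4 pairs whose exons align to a parent's transcript with at least 90% identity over at least 200 bases. There were 7 for Npm1, 11 for Rpl26, 7 for Rps3a1 and none for Norad. With the same cutoffs the genome itself held 15 loci like Norad, 11 like Npm1, 12 like Rpl26 and 10 like Rps3a1, the members' own loci not left out. Loci outside annotated exons have no counts here. Of the 25 features, 23 had at most 5 counts in every library, NK10, NK11 and NK12 included. The most counted copies of Rpl26, Rpl26-ps6 and Gm19620, had at most 3 counts in a library. The most counted copies of Rps3a1 on its sense strand, Gm13408 and Gm8960, had at most 2 and 3. Rps3a2, 99.5% identical to Rps3a1 over 792 bases and so closer to it than Rps3a3 is, had at most 2.

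Only Gm14776, a copy of Npm1 with 7 to 30 counts per library, and Khdrbs2, an RNA-binding protein gene that holds a piece of Rps3a1 in antisense, were abundant enough to be tested. Neither passed the threshold in edgeR's likelihood ratio test (0 of 2 called, beside 1.65% of all features). At an unadjusted p under 0.05 there was 1 of the 2, beside 11.9%, and the quasi-likelihood test called 0. Gm14776 was at 1.04 ± 0.42 CPM in the libraries labelled TAAR5-KO and 0.597 ± 0.311 in those labelled WT (SD, n = 6 each). The other copy of Npm1 with the most counts, Gm6477, had at most 3 per library.

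Of the processed pseudogenes outside the members, 18 were tested and 1 was called, Gm15459, which was lower in the libraries labelled TAAR5-KO (5.56%, beside 1.65% of all features). At an unadjusted p under 0.05 there were 5 of the 18 (27.8%, beside 11.9% of all features). The median log2 fold change of the 18 was 0.01, and that of all features was −0.01. Among the transcribed processed pseudogenes 9 were tested and 0 were called, beside 1.65% of all features. At an unadjusted p under 0.05 there were 0, beside 11.9%, and the quasi-likelihood test called 0. A list of 9 is too short to tell 0 calls from 1.65%.

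Gm15459 (ENSMUSG00000100801.2), on chromosome 5 from 5831615 to 5833555, is itself a copy of Hspa8, the constitutive heat shock cognate chaperone. Copy and gene were 99.7% identical over 1941 bases, with 5 substitutions. It had 92 counts in NK10 and 228 in NK11 (11.1 and 10.5 CPM), and 25 in NK12 (0.565 CPM). The other 9 libraries had 1 to 21 counts, or 0.0810 to 0.681 CPM, so that NK12 was with them and not with NK10 and NK11. The fit gave it −3.17 (SE 0.76) on the log2 scale, with an adjusted p of 0.0185 in edgeR's likelihood ratio test and of 0.211 in the quasi-likelihood test. The call was lost without NK11 (adjusted p = 0.145), and without NK10, NK11 and NK12 the value was 0.20.

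The share of the Gm15459 and Hspa8 counts on the copy was 10.6% (8.69 to 12.8) in NK10, 9.32% (8.23 to 10.5) in NK11 and 0.409% (0.277 to 0.603) in NK12. From NK1 to NK9 it was at most 0.559%. The 4 retrocopies and Gm15459 were therefore alike in NK10 and NK11 and differed in NK12. Hspa8 alone was at 116 ± 11.3 CPM in the libraries labelled TAAR5-KO and 111 ± 15.2 in those labelled WT (SD, n = 6 each), with an adjusted p of 0.895 in edgeR's likelihood ratio test.

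Genes that work with the parents were counted by lists. Of 16 other nucleolar genes such as Ncl, Fbl and Ubtf, 15 were tested and 0 called, beside 1.65% of all features. At an unadjusted p under 0.05 there were 0, beside 11.9%, and the quasi-likelihood test called 0. A list of 15 is too short to tell 0 calls from 1.65%. The median log2 fold change was 0.04, with 11 of 15 values above 0.

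Of 78 other ribosomal protein genes 75 were tested, and 2 were called lower in the libraries labelled TAAR5-KO and 0 higher, 2.67% beside 1.65% of all features. At an unadjusted p under 0.05 there were 18 of the 75 (24.0%, beside 11.9%). The median log2 fold change of the list was −0.08, with 59 of 75 values below 0. Rps2, a protein of the small subunit, was at 13.4 ± 1.23 CPM in the libraries labelled TAAR5-KO and 18.0 ± 1.11 in those labelled WT (SD, n = 6 each). The groups did not overlap, with a highest library of 15.5 CPM for TAAR5-KO and a lowest of 16.0 CPM for WT. The difference was −0.42 (SE 0.09) on the log2 scale, with an adjusted p of 0.00134 in edgeR's likelihood ratio test and of 0.0351 in the quasi-likelihood test. Scaled by library size alone, it differed by −0.89 with an adjusted p of 0.700, and without NK10, NK11 and NK12 it was −0.37 with an adjusted p of 0.181, both in edgeR's likelihood ratio test.

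Rpl7a, of the large subunit, was at 7.64 ± 1.11 CPM for the label TAAR5-KO and 9.72 ± 0.87 for WT (SD, n = 6 each). It differed by −0.35 (SE 0.11) on the log2 scale, with an adjusted p of 0.0742 in edgeR's likelihood ratio test and of 0.163 in the quasi-likelihood test. The call was lost without any one of NK1, NK3, NK5, NK7, NK8, NK11 or NK12, with adjusted p from 0.103 to 0.219, while the difference stayed at −0.38 to −0.30. It was −0.36 without NK10, NK11 and NK12 (adjusted p = 0.386 in edgeR's likelihood ratio test). Rps2 and Rpl7a were lower in the libraries labelled TAAR5-KO, while the fitted values of Rpl26 and Rps3a1 alone were above 0 and their sums with the retrocopies close to 0. Both genes may share reads with copies of their own, which were not examined.

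Rpl34, another ribosomal protein gene, was picked out after its values were seen. It had 0.723, 0.277 and 0.384 CPM in NK10, NK11 and NK12 (6, 6 and 17 counts) and 3.28 to 4.59 CPM in the other 9 libraries. It was thus below its level in the other 9 libraries in all 3, NK11 included, where Rpl26 kept 5.35 CPM. Its log2 fold change was 0.87 (SE 0.48) and did not pass the threshold (adjusted p = 0.470 in edgeR's likelihood ratio test). Without NK10, NK11 and NK12 it was 0.07 (adjusted p = 0.979 in edgeR's likelihood ratio test). Where its reads went in these libraries was not examined.

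The genes around the members were examined next. The 16 tested features that overlap a member or are next to it gave 0 calls, where 1.65% of all features were called (0 at an unadjusted p under 0.05, beside 11.9%, and 0 by the quasi-likelihood test), and a median log2 fold change of −0.01. Pde4d, the phosphodiesterase gene in which Rps3a3 lies, was at 8.91, 10.4 and 11.01 CPM in NK10, NK11 and NK12 and at 7.68 to 10.8 CPM in the others. Elovl7 and Rab3c lie 384920 and 1382790 bases from Rps3a3, with log2 fold changes of −0.11 (SE 0.27) and −0.01 (SE 0.11).

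For Gm7292 the nearest tested genes were Cxcl12, a chemokine gene, and Zfp637, at 534975 and 122312 bases, with −0.01 (SE 0.18) and 0.10 (SE 0.21). Gm14681 lies between Slitrk2, which encodes a synaptic adhesion protein, at 117049 bases and Fmr1, which encodes an RNA-binding protein of synapses, at 1899689 bases, with 0.06 (SE 0.10) and 0.09 (SE 0.10). Cdk6, a kinase gene 104617 bases from Gm15772, had 0.23 (SE 0.26). All 8 neighbours of the retrocopies had overlapping ranges in NK10 to NK12 and in the other 9 libraries. Beside the parents, Arhgef15 next to Rpl26 was at 1.81, 1.48 and 1.58 CPM in NK10, NK11 and NK12 and at 1.76 to 2.22 CPM in the others, with a log2 fold change of 0.21 (SE 0.15). Ranbp17 next to Npm1 was at 3.37 CPM in NK10, above the 1.55 to 2.73 CPM of the other 9, and within or below that range in NK11 and NK12.

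The features whose pattern was most like that of the retrocopies were found by Pearson's r over the 12 libraries with the mean of their standardized log2 CPM. Among the 8 highest were Polr2c (r = 0.905), a subunit of RNA polymerase II, Sbf1 (0.890), the growth hormone gene Gh (0.888), Hs3st3a1 (0.887), Hip1r (0.866), Yars1 (0.866) and Paqr8 (0.865). The libraries form separate clusters in this pattern, so r here only says that these genes are highest in the same ones, and it was not computed without NK10, NK11 and NK12. Polr2c was the only feature outside the members over 0.9, at 2.65, 2.45 and 2.17 CPM in NK10, NK11 and NK12 and 1.13 to 1.75 CPM in the others. The retrocopies themselves were at 0.977 to 0.992. That was high by construction, since each is part of the mean and all were chosen on the same contrast, so nothing is read from it. Their parents were at −0.737 to −0.971. Rpl34, at −0.968, was the lowest feature outside the members.

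Other values moved with NK10, NK11 and NK12. The 5 pituitary markers Gh, Prl, Pomc, Cga and Tshb summed to 17.2, 55.9 and 14.0 CPM there, and to 0.312 to 5.58 CPM in the other 9 libraries. Of the 3 that were tested, Gh was called lower in the libraries labelled TAAR5-KO by edgeR's likelihood ratio test (adjusted p = 0.0668, 0.180 in the quasi-likelihood test, and not tested without NK10, NK11 and NK12, where it did not pass the filter). Choroid plexus markers did not follow the same libraries, with 241 and 150 CPM in NK10 and NK11, 3.50 CPM in NK12, and 2.68 to 469 CPM elsewhere. The other lists ranged over 2.64 to 5.03 CPM (ependyma, 5 genes), 35.4 to 107 CPM (cortical pyramidal neurons, 5 genes) and 5.14 to 13.7 CPM (blood, 5 genes) in the libraries labelled WT, and over 1.30 to 7.37, 28.2 to 94.7 and 6.39 to 17.1 CPM in those labelled TAAR5-KO. The only other marker called was the haemoglobin gene Hbb-bt, higher in the libraries labelled TAAR5-KO by 1.70 on the log2 scale (adjusted p = 0.00652 in edgeR's likelihood ratio test, 0.101 in the quasi-likelihood test). This gene was not set apart in NK10, NK11 and NK12, and the difference was 1.74 without them (adjusted p = 0.125 in edgeR's likelihood ratio test). In bulk tissue, fewer cells of a type and less RNA per cell cannot be told apart. The part of these values in the retrocopy counts was not tested.

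The same 3 libraries were the ones labelled WT that had Xist, the RNA of the inactive X chromosome. Xist was at 95.5, 111 and 103 CPM in NK10, NK11 and NK12, and at 127 to 143 CPM in NK4, NK5 and NK6, which are labelled TAAR5-KO. NK1 to NK3 and NK7 to NK9 had at most 1.09 CPM of it and 114 to 274 counts of the Y-linked helicase gene Ddx3y, against 0 or 1 counts of Ddx3y in the libraries with Xist. Uty, Kdm5d and Eif2s3y, which are also on the Y chromosome, had 43 to 191 counts in the former and 0 to 2 in the latter. Retrocopy counts were therefore high in the 3 libraries with Xist labelled WT, and not in the 3 with Xist labelled TAAR5-KO, where Gm7292 had 1 to 6 counts and Gm15772 had 1 count each. Within the libraries labelled WT, sex and any other property that NK10 to NK12 share cannot be told apart.

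**Figure D5:**
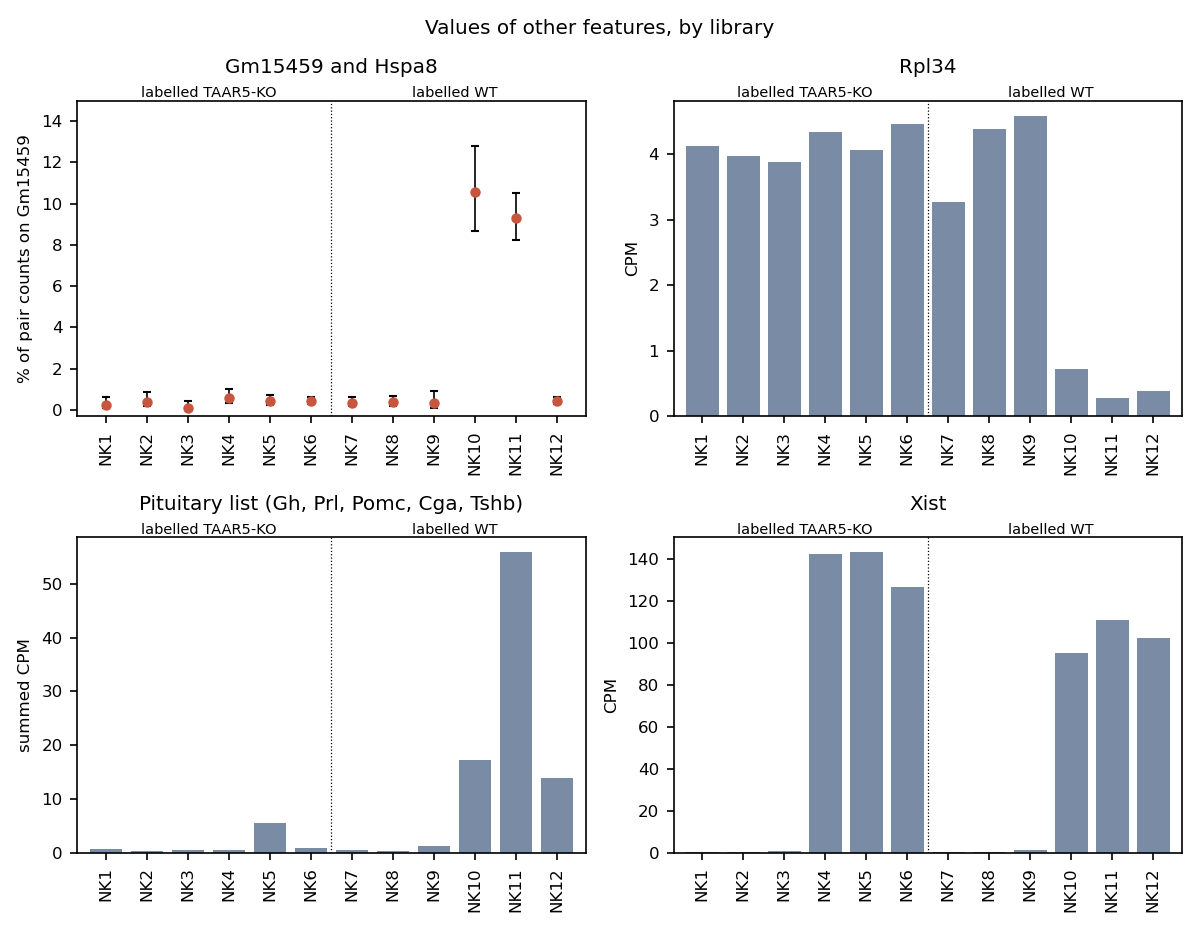
Percentage of the Gm15459 and Hspa8 counts on Gm15459 with 95% Wilson intervals, CPM of Rpl34, summed CPM of 5 pituitary markers and CPM of Xist (vertical axes) in the 12 libraries (horizontal axes). Rpl34 is below 1 CPM in NK10 to NK12 and the pituitary sum is highest there, while Gm15459 is high in NK10 and NK11 only and Xist also in NK4 to NK6.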

How the data were processed

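Striatal RNA of 6 TAAR5-KO and 6 WT mice was measured. The authors trimmed reads with cutadapt 4.1 after FastQC, used STAR 2.7.11b with the GRCm39 genome for alignment and deposited raw counts per feature of GENCODE M35 from featureCounts 2.0.6. Whether counting used strand, and what was done with multi-mapping reads, is not given in the sources used here. The handling of multi-mapping reads bears on how reads are split between a retrocopy and its parent. Strand bears only on whether a read is counted at the place where it aligned. A further 12 columns of per-library counts belong to no sample of the series and were not used.

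Counts were compared in edgeR 4.0.16 (R 4.3.3) with TMM factors (0.375 to 2.46) and a filter of 0.5 CPM in at least 3 libraries. For the filter, CPM was taken on total counts without TMM scaling. The fit was glmFit with glmLRT, the test of the study's methods, at a Benjamini-Hochberg adjusted p under 0.1. Standard errors came from the weights of the same fit, and the fit was tested on simulated data. The quasi-likelihood test and DESeq2 1.42.0 were run beside it. Depth is given by the total counts, and 0 was read as up to 3 counts. The total counts lay mostly on Rn18s-rs5 and do not rank the libraries by depth on the members. NK1 had 34824450 counts with 2150 on the members, and NK12 had 18420441 with 6066. Shares have 95% Wilson intervals (SciPy 1.17.1) and ratios of rates exact Clopper-Pearson intervals. The labels name a separate animal for each sample. No pair of libraries of a group agreed within sampling noise (chi-square per degree of freedom of at least 8.12 in 30 pairs). This value was taken on counts without TMM scaling, Rn18s-rs5 included, so it cannot show that libraries came from separate animals.

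Retrocopies were aligned to the spliced transcript of the parent with Biopython 1.88, and other copies were found with BLAST+ 2.17.0. Biotypes came from GENCODE M39, a later release on the same build, and were found for 56630 of 57132 features. The genes named are Taar5, the members, called genes of the lists for copies, pseudogenes, partners and neighbours (at most 8 a list), the 2 most counted other copies of each parent, the nearest tested neighbours, the 8 features most like the retrocopies by log2 CPM with a prior count of 2, and sex-linked genes. Results on certain genes are not reported here. The members and all lists were chosen with earlier results of these data known.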

Additional observations from a re-analysis of the deposited data

Results flagged for a closer look

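Of 32 sets of 6 libraries examined (the CPM of each member, each retrocopy share and each pair sum, in each label), 1 held a library far from the others. Rps3a1 was at 6.50 CPM in NK4, labelled TAAR5-KO, while the other 5 libraries of that label ran from 4.98 to 5.50 CPM, so that the gap was 0.662 of the whole range. Chance alone sets apart about 1 in 20 such sets. NK10, NK11 and NK12 were not singled out in this way, because 3 high values in a set of 6 are not a lone outlier.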

How the results depend on the processing

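The direction of the retrocopies was fixed by their choice, so no stability is read from it. Without NK10, NK11 or NK12 in turn, Gm7292, Gm15772 and Rps3a3 no longer passed the filter and could not be fitted, and Gm14681 stayed at −4.53 to −3.60 when any library was left out. The count of features called between the labels was 63 by the quasi-likelihood test, 7 with library size as the only scaling, 93 without a filter, 108 at an adjusted p under 0.05, 85 (without NK11) to 414 (without NK4) with a library left out, and 15 with NK10, NK11 and NK12 left out together. Library size as the only scaling moved the median of all features to −0.49, and with it the pair sums to −0.55 (Norad), −0.16 (Npm1), −0.56 (Rpl26) and −0.52 (Rps3a1). With a library left out these sums were −0.01 to 0.07, 0.22 to 0.36, −0.19 to −0.04 and −0.08 to 0.06. Per kilobase of merged exons, the mean share of Gm14681 in the libraries labelled WT exceeded that in the others by 31.5 percentage points. That value depends on the length taken for Npm1, 2665 bases of merged exons against 1665 of transcript. By counts the difference was 11.2 percentage points, and 7.24 to 13.4 with a library left out. The corresponding ranges for Gm7292, Gm15772 and Rps3a3 were 4.74 to 7.45, 28.8 to 48.3 and 18.9 to 36.7 percentage points.

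Processed pseudogenes called, 1 in the report, were 0 by the quasi-likelihood test and DESeq2 (where the adjusted p of Gm15459 was missing), 5 without a filter, 0 to 3 with a library left out and 0 without NK10, NK11 and NK12, where the value of Gm15459 turned to 0.20. Ribosomal protein genes called, 2 in the report, were 1 by the quasi-likelihood test, 0 by library size only, 1 without a filter, 1 at an adjusted p under 0.05, 1 to 5 with a library left out and 0 without the 3 libraries. Other copies called went from 0 to 1 without NK4, NK9 or NK10. Neighbours and the nucleolar genes stayed at 0 calls in all alternatives. Of the 8 features most like the retrocopies, 2 were kept with library size as the only scaling and 2 with Spearman's rho. The cause of these changes was not tested. Counts of 0 to 8 on the retrocopies in NK1 to NK9 limit any statement on their level there. No paired analysis was possible, because the labels do not say which animals shared a litter. The columns also carry numbers from NK1 to NK12 that do not match the animal numbers of the labels.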
